A study of Mus musculus with 6 samples.

Results

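A set of 10 genes of calcineurin signaling and hypertrophic stress were examined here, chosen by name out of the 54532 genes counted. They are Rcan1, the calcineurin A genes Ppp3ca and Ppp3cb, the transcription factor genes Nfatc1, Nfatc2, Nfatc3 and Nfatc4, the kinase gene Camk2d, and the stress genes Ankrd1 and Xirp2. RNA-seq counts were made from the whole heart of male C57BL/6 mice aged 3 months, with 3 hearts per genotype and no treatment named in the labels. The α1r/rα2s/s hearts (mice 368, 369 and 370) carry the rodent form of the Na/K-ATPase α1 subunit, which has a low affinity for cardiotonic steroids (CTS) and is called resistant. The α1s/sα2s/s hearts (mice 379, 380 and 381) carry an α1 made sensitive to CTS by amino acid substitutions in the gene itself. Both genotypes have a CTS-sensitive α2. The substitution is in the germline, so that every cell type of these mice carries it, and the study describes the controls as littermates or as matched for age. The question was how the RNA of a pathway known for hypertrophic growth stood in the hearts with a CTS-sensitive α1.

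Calcineurin is a phosphatase that is activated by calcium and calmodulin. It removes phosphates from the NFATc factors, which then enter the nucleus, and glycogen synthase kinase and other kinases put the phosphates back. In heart muscle this route, and the calcium/calmodulin-dependent kinase CaMKII beside it, are known to drive hypertrophic gene expression, while Ankrd1 and Xirp2 encode sarcomere and intercalated disc proteins whose RNA is known to rise under load. NFATc activity is set by phosphorylation and location, which RNA counts do not measure.

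Counts totalled 19309312 to 20470065 per heart, with 23.4% to 26.0% on mitochondrially encoded genes. The TMM method of edgeR gave scaling factors of 0.9885 to 1.06 in α1r/rα2s/s and 0.945 to 0.986 in α1s/sα2s/s hearts, also without overlap. The normalized library size was 0.946 times as large in α1s/sα2s/s as in α1r/rα2s/s hearts. Levels are given as CPM, counts scaled to library size, after this step. Over all genes, the median log2 fold change of α1s/sα2s/s over α1r/rα2s/s hearts was -0.01. The cardiomyocyte markers summed to 45977 to 59229 CPM in α1r/rα2s/s and 51833 to 55757 CPM in α1s/sα2s/s hearts. RNA from fewer cells of a type and less RNA per cell cannot be told apart in whole hearts.

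The quasi-likelihood test of edgeR called 0 of the 10 genes (adjusted p under 0.05), where it called 1.44% of the 14866 genes tested. At an unadjusted p under 0.05 it was 1 of 10, Xirp2, where 14.5% of all genes passed. DESeq2 called 1 of 10, again Xirp2, against 3.65% of the genes it tested. All 10 were expressed well enough to be tested, with 6 higher and 4 lower in α1s/sα2s/s hearts. Their median log2 fold change was 0.04, and the values ran from -0.19 for Nfatc4 to 0.25 for Xirp2. In 4 of the 10 genes (Nfatc3, Camk2d, Ankrd1 and Xirp2) the genotypes did not overlap in CPM, while 20% of all genes tested had no overlap. In the counts before scaling it was 3 of them, without Nfatc3.

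**Figure D1:**
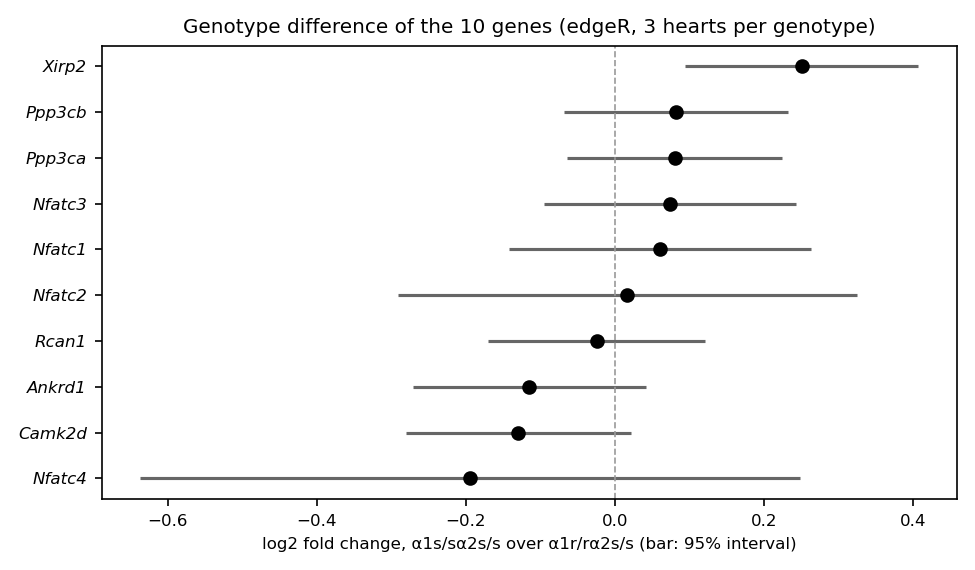
Log2 fold change of α1s/sα2s/s over α1r/rα2s/s hearts for the 10 genes (points) with 95% intervals from edgeR (bars), 3 hearts per genotype. The interval of Xirp2, 0.09 to 0.41, lies above 0, and the other 9 intervals include 0.

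For 7 of the 10 genes the 95% interval stayed within a change of 20% in either direction. The exceptions were Nfatc2, Nfatc4 and Xirp2. These intervals are per gene and are not adjusted for the number of genes.

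Levels of different genes were compared as CPM per kb of the gene length in the count table. Over the 6 hearts the mean was 560 CPM per kb for Ankrd1, 60.1 for Xirp2 and 32.9 for Rcan1. The signaling genes were lower on this scale, with 11.6 CPM per kb for Ppp3cb, 8.67 for Ppp3ca and 7.94 for Camk2d. The NFATc genes came last, with 3.12 for Nfatc3, 2.81 for Nfatc1, 1.56 for Nfatc2 and 0.988 for Nfatc4. Highest and lowest lay 567-fold apart on this scale. The length mostly counts every annotated exon, so that a level per kb is set low by exons the heart may not use. It is 22493 bases against 5524 in the principal transcript for Camk2d, 9981 against 2194 for Ppp3ca and 8809 against 3831 for Ppp3cb. For Rcan1 it is 3085 against 2190. The order of the signaling genes and their distance from Rcan1 thus depend on the length used. For Ankrd1 the count table gives 1765 bases where the annotated exons cover 2886, and whether this sets its level per kb high was not tested. Ppp3ca and Camk2d did not differ beyond their spread in α1r/rα2s/s hearts, with 8.43 ± 0.261 and 8.30 ± 0.559 CPM per kb (SD, n = 3), while they stood at 8.92 ± 0.262 and 7.59 ± 0.216 in α1s/sα2s/s hearts. The other neighbours in this order did not overlap within either genotype.

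**Figure D2:**
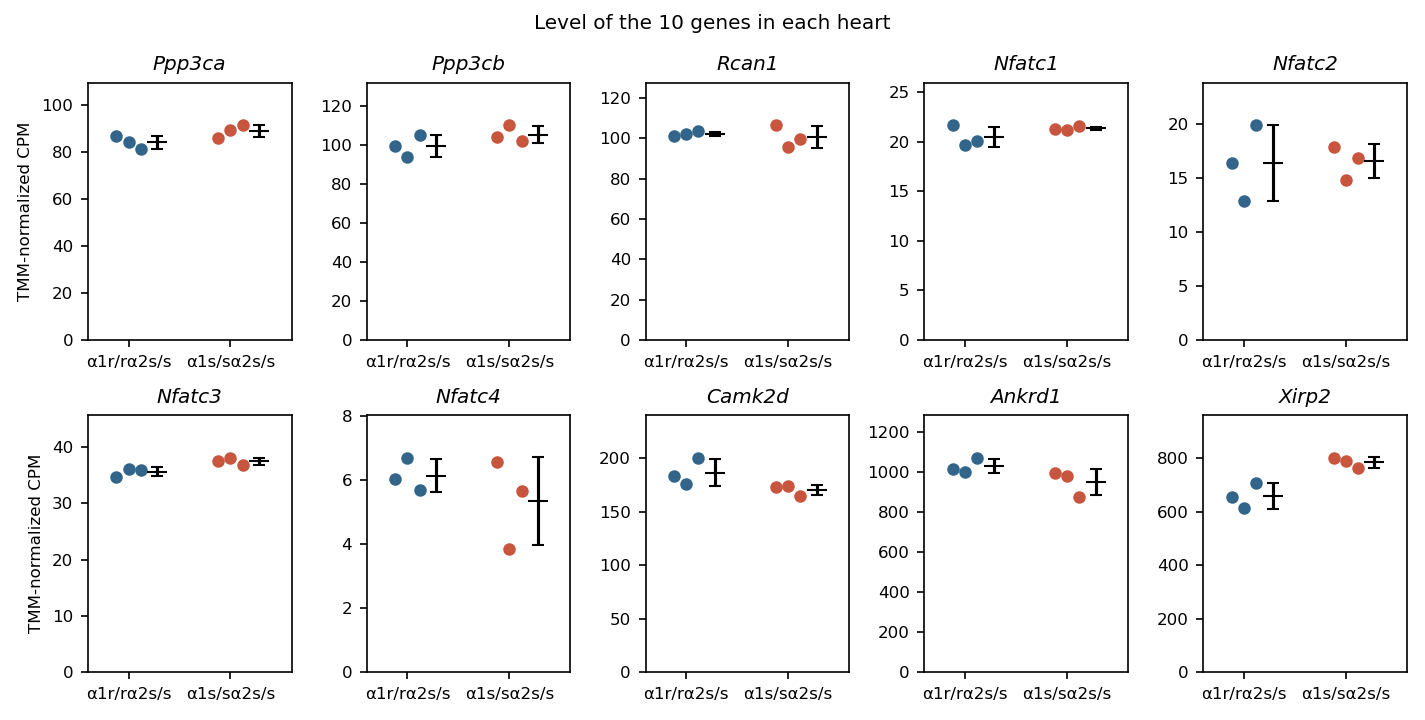
TMM-normalized CPM of the 10 genes in each heart (points, left to right 368, 369 and 370 for α1r/rα2s/s and 379, 380 and 381 for α1s/sα2s/s), with the mean and SD of 3 hearts beside them. Every axis starts at 0. The points of Nfatc3, Camk2d, Ankrd1 and Xirp2 separate by genotype, and heart 380 is the lowest point for Nfatc4 at 3.84 CPM.

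Rcan1 (ENSMUSG00000022951, chr16:92391953-92470867, minus strand of GRCm38) encodes a regulator that binds and restrains calcineurin. It is itself a known target of NFATc, and its RNA is widely used as a readout of calcineurin activity. The annotation gives it 5 coding start sites. The NFAT-responsive transcript is known to start inside the gene, so the 250 bases before the start of both RefSeq promoters (GRCm38.p6) are shown for contrast, 5′ to 3′ on the strand of the gene. Capitals mark the NFAT core GGAAA or its complement TTTCC.

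Rcan1 upstream promoter, chr16:92466170-92466419, minus strand: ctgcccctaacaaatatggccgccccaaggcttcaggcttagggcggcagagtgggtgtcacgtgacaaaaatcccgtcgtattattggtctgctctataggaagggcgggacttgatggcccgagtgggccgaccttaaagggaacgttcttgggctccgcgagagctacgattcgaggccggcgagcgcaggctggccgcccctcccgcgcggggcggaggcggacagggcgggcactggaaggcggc

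Rcan1 internal promoter, chr16:92400079-92400328, minus strand: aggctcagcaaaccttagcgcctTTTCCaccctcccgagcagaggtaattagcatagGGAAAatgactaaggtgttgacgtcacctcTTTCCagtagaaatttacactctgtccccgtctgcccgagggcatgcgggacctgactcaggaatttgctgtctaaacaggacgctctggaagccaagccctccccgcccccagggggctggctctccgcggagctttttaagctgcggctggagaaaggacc

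The upstream promoter held 0 NFAT cores, and the internal promoter held 3, beginning 227, 193 and 163 bases before the start. A motif this short is common, and 55.6% of 32851 RefSeq promoters held at least 1 on either strand in the same window. Among the 10 genes, Ppp3cb, Nfatc4 and a promoter of Nfatc2 also held 3 in this window. A match is a string of letters and not a measured binding site. Counts per gene add up the transcripts from both starts, so that the RNA of the internal start is not seen by itself.

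Rcan1 stood at 101, 102 and 103 CPM in α1r/rα2s/s hearts and at 106, 95.6 and 99.6 CPM in α1s/sα2s/s hearts. The α1s/sα2s/s hearts lay on both sides of the controls. The log2 fold change was -0.02 (SE 0.07, adjusted p = 0.909, edgeR), and the 95% interval of the change ran from -11.1% to 8.75%. Leaving out heart 380, the lowest, brought the log2 fold change to 0.02. An antisense gene that overlaps Rcan1, Gm46555, had at most 8 counts in any heart against 1818 to 2144 for Rcan1.

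Rcan2, a relative that also restrains calcineurin, had 444 ± 13.6 CPM in α1r/rα2s/s and 501 ± 4.23 CPM in α1s/sα2s/s hearts (SD, n = 3). Its genotypes did not overlap, and its log2 fold change of 0.18 missed the threshold in edgeR (adjusted p = 0.222) and passed it in DESeq2 (adjusted p = 0.0403). The ratio of Rcan1 to Rcan2 counts, looked at after both genes' values were known, was 0.231 ± 0.00485 and 0.201 ± 0.00948 (SD, n = 3), without overlap. This ratio adds no support beyond the separation of Rcan2 itself.

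Ppp3ca (ENSMUSG00000028161, chr3:136670124-136937727) and Ppp3cb (ENSMUSG00000021816, chr14:20499364-20546573, minus strand) encode the catalytic calcineurin A subunits α and β. Ppp3ca had 86.8, 84.2 and 81.5 CPM in α1r/rα2s/s hearts and 86.2, 89.3 and 91.4 CPM in α1s/sα2s/s hearts. Ppp3cb had 99.4, 94.0 and 105 CPM in α1r/rα2s/s hearts and 104, 110 and 102 CPM in α1s/sα2s/s hearts. In both genes the groups overlapped. The log2 fold changes were 0.08 for both (SE 0.07 each, adjusted p = 0.632 and 0.640, edgeR), with 95% intervals from -4.32% to 16.8% for Ppp3ca and from -4.67% to 17.5% for Ppp3cb.

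The third catalytic gene, Ppp3cc, is best known from testis, and was counted here at 28.2 ± 3.35 CPM in α1r/rα2s/s and 26.7 ± 2.96 CPM in α1s/sα2s/s hearts (SD, n = 3). Of the calcineurin A counts per kb, Ppp3ca made up 29.0% ± 2.16 and 29.9% ± 0.650 (SD, n = 3; exact permutation test, two-sided p = 0.7), a difference of 0.911 percentage points that became -0.319 without heart 370. Ppp3cb made up 38.7% ± 0.0853 and 40.1% ± 2.40 (exact permutation test, two-sided p = 0.4). These shares depend on the length used. Dividing by the principal transcript of each gene, chosen after seeing the data, gave 48.8% and 49.7% for Ppp3ca. The regulatory subunit gene Ppp3r1 had a log2 fold change of 0.07 (SE 0.07, adjusted p = 0.671, edgeR).

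The 4 NFATc genes encode the transcription factors that calcineurin acts on. Nfatc3 (ENSMUSG00000031902, chr8:106058840-106130537) had 34.8, 36.2 and 36.0 CPM in α1r/rα2s/s hearts and 37.5, 38.1 and 36.9 CPM in α1s/sα2s/s hearts. Each α1s/sα2s/s heart lay above each control after scaling, but the counts themselves, 716 to 757 and 711 to 756, overlapped. Its log2 fold change was 0.07 (SE 0.08, adjusted p = 0.720, edgeR), and the 95% interval ran from -6.40% to 18.3%. The spread of Nfatc3 within a genotype, 2.14% and 1.61%, was below the 3.70% that counting error alone gives.

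Nfatc1 (ENSMUSG00000033016, chr18:80606205-80713071, minus strand), best known in the heart for valve formation from endocardium, had 21.6, 19.7 and 20.05 CPM in α1r/rα2s/s and 21.3, 21.1 and 21.5 CPM in α1s/sα2s/s hearts. Heart 368 was above all 3 α1s/sα2s/s hearts, so that the groups overlapped (log2 fold change 0.06, SE 0.09, adjusted p = 0.824, edgeR). The endocardium and valve markers summed to 156 to 185 CPM in α1r/rα2s/s and 155 to 171 CPM in α1s/sα2s/s hearts, with 2 of 6 higher and 4 lower. Nfatc2 (ENSMUSG00000027544, chr2:168476410-168601657, minus strand) had 16.4, 12.9 and 19.9 CPM in α1r/rα2s/s and 17.9, 14.8 and 16.9 CPM in α1s/sα2s/s hearts. It varied most among the controls, by 21.3% where counting error gives 5.51%, and the α1s/sα2s/s hearts all lay within the range of the controls. Its log2 fold change of 0.02 (SE 0.14, adjusted p = 0.972, edgeR) became -0.13 without heart 369 and -0.04 without heart 379.

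Nfatc4 (ENSMUSG00000023411, chr14:55823144-55833943) had 6.02, 6.69 and 5.68 CPM in α1r/rα2s/s hearts and 6.55, 3.84 and 5.65 CPM in α1s/sα2s/s hearts. Heart 380, with 73 counts, was lower than the other 5 hearts, which had 109 to 140. Its log2 fold change of -0.19 had the largest error of the 10 genes (SE 0.21, adjusted p = 0.718, edgeR), with an interval from -35.7% to 18.8%. It was -0.00077 without heart 380 and -0.36 without heart 379, and the α1s/sα2s/s hearts varied by 25.8% where counting error gives 9.30%. Of the NFATc counts per kb, Nfatc3 made up 36.2% ± 1.61 and 37.4% ± 2.07 (SD, n = 3; exact permutation test, two-sided p = 0.5) and Nfatc1 32.8% ± 1.57 and 33.6% ± 1.32. Nfatc2 made up 18.4% ± 3.38 and 18.3% ± 0.967 and Nfatc4 12.6% ± 1.47 and 10.7% ± 2.35, and no NFATc share separated the genotypes.

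**Figure D3:**
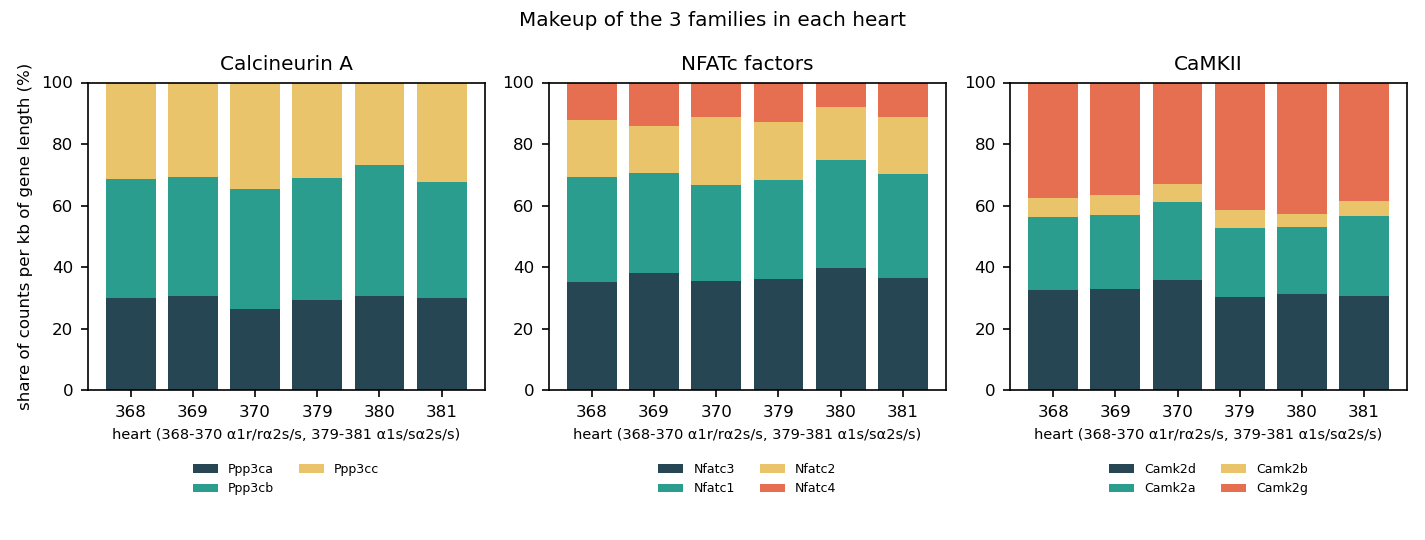
Share of each gene in the counts per kb of gene length of its family, in %, for calcineurin A, the NFATc factors and CaMKII, with 1 bar per heart. The lowest segment of the CaMKII bars is Camk2d, at 32.7% to 35.8% in hearts 368 to 370 and 30.2% to 31.3% in hearts 379 to 381.

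Camk2d (ENSMUSG00000053819, chr3:126596302-126846326) encodes CaMKIIδ, the main CaMKII of heart muscle, which acts on calcium handling proteins and on histone deacetylases. It had 183, 176 and 201 CPM in α1r/rα2s/s hearts and 173, 174 and 165 CPM in α1s/sα2s/s hearts. All α1s/sα2s/s hearts lay below all controls, by a narrow gap between hearts 369 and 380. The log2 difference was -0.13 (SE 0.07, adjusted p = 0.421, edgeR), with an interval from -17.7% to 1.52%, and DESeq2 gave an adjusted p of 0.426. It was -0.07 without heart 370, the highest control. Of the genes that overlap Camk2d in the annotation, none had more than 33 counts in a heart, against 3182 to 3991 for Camk2d.

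Camk2g, which encodes CaMKIIγ, had 59.9, 55.4 and 52.8 CPM in α1r/rα2s/s hearts and 67.7, 67.5 and 59.0 CPM in α1s/sα2s/s hearts. Heart 381 lay just below heart 368, and the log2 fold change of 0.21 missed the threshold (SE 0.08, adjusted p = 0.254, edgeR). Within the CaMKII counts per kb, Camk2d made up 33.8% ± 1.73 in α1r/rα2s/s and 30.7% ± 0.587 in α1s/sα2s/s hearts (SD, n = 3), a difference of -3.07 percentage points without overlap (exact permutation test, two-sided, p = 0.1, below which 3 hearts per genotype cannot go). Camk2g made up 35.7% ± 2.30 and 40.9% ± 2.18, also without overlap (exact permutation test, two-sided p = 0.1). The genes' order within the family depends on the length. With principal transcripts, a choice made after seeing the data, Camk2d made up 55.1% and 51.7% and Camk2g 24.7% and 29.2%, and both again separated the genotypes. Shares of one family move against each other, so these are not separate results.

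Ankrd1 (ENSMUSG00000024803, chr19:36111965-36119844, minus strand) encodes the cardiac ankyrin repeat protein CARP, which binds titin in the I band and also acts in the nucleus. Xirp2 (ENSMUSG00000027022, chr2:67446002-67526614) encodes an actin-binding repeat protein of the intercalated disc and Z disc, and is a known target of the transcription factor MEF2. Their 250 bases before the RefSeq start (GRCm38.p6) are shown since both genes belong to the load-responsive group. Whether motifs in them bear on the level of either gene was not tested. Capitals mark the TEAD motif CATTCC or its complement GGAATG and the MEF2 consensus. TEAD factors are the DNA-binding partners of the stretch-responsive coactivator YAP.

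Ankrd1, chr19:36119845-36120094, minus strand: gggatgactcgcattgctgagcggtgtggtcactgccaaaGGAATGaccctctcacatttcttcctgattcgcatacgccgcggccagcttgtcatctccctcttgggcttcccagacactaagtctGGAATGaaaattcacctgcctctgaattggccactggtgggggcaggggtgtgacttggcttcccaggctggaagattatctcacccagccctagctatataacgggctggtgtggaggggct

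Xirp2, chr2:67445752-67446001, plus strand: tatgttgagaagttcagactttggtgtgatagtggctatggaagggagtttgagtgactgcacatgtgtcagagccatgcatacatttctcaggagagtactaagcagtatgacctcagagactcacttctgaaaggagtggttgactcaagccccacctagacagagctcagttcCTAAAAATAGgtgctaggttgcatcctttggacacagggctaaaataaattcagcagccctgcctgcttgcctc

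The Ankrd1 window held 2 TEAD motifs, beginning 210 and 123 bases before the start, and 12.6% of all promoters held at least 1. The Xirp2 window held 1 MEF2 consensus 74 bases before the start, which 2.92% of all promoters held. Neither window held the NFAT core. The GATA motif GATAA, searched as well, was found once in Ankrd1 at 47 bases before the start and in 22.6% of all promoters, and TATAAA, in 7.59% of all promoters, was in none of the 4 windows shown. Both strands were searched, except for TATAAA, which was read on the strand of the gene. In all, 8 of the 10 genes had a RefSeq promoter entry.

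Ankrd1 was the most abundant of the 10 genes, with 1015, 1000 and 1069 CPM in α1r/rα2s/s hearts and 991, 980 and 876 CPM in α1s/sα2s/s hearts. The α1s/sα2s/s hearts lay below the controls, with heart 379 close to heart 369 and heart 381 further down. The log2 fold change was -0.12 (SE 0.07, adjusted p = 0.503, edgeR), with an interval from -17.1% to 2.90%, and it was -0.06 without heart 381. Counting error accounts for 0.710% of spread at 16886 to 21270 counts per heart, so that the hearts' own variation, 3.53% and 6.70% within the genotypes, sets the precision.

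Xirp2 had 654, 612 and 708 CPM in α1r/rα2s/s hearts and 800, 787 and 762 CPM in α1s/sα2s/s hearts. The lowest α1s/sα2s/s heart, 381, stood above the highest control, 370. The log2 fold change was 0.25 (SE 0.07), or 19.0% with an interval from 6.77% to 32.6%. The unadjusted p was 0.00383 and the adjusted p 0.117 in edgeR, and by p it ranked 484 among all genes tested. DESeq2 gave an adjusted p of 0.0058, and edgeR without a filter on low counts 0.0243. Over the 13 alternatives the adjusted p ran from 0.0058 to 0.314, and it missed the threshold in all 6 fits that left out 1 heart. Its log2 fold change stayed between 0.20 and 0.31.

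The ratio of Xirp2 to Ankrd1 counts does not depend on library scaling, and was formed after both genes' values were seen. It was 0.645, 0.612 and 0.663 in α1r/rα2s/s hearts and 0.807, 0.803 and 0.869 in α1s/sα2s/s hearts. Every α1s/sα2s/s heart had the higher ratio, by 1.29-fold on average. In CPM every α1s/sα2s/s heart was above every control for Xirp2 and below every control for Ankrd1. The separation of the ratio was therefore fixed once these genes were picked, and it adds no support. Against its close relative Xirp1, an intercalated disc gene with a log2 fold change of 0.01 (adjusted p = 0.971, edgeR), the ratio of Xirp2 counts was 3.71 ± 0.207 and 4.39 ± 0.450 (SD, n = 3), without overlap. Xirp1 was added after its values were seen, and this ratio adds no support beyond the separation of Xirp2 itself.

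Among 9085 genes whose log2 CPM averaged 3 or more, the genes most like each of these in log2 CPM over the 6 hearts were found by Pearson's r, as a description. For Rcan1 they were Zdhhc3 (0.958), Cxxc5 (0.958) and Slc35c2 (0.954). For Ankrd1 they were Bcl2 (0.992), Pja1 (0.991) and Arpin (0.990), and for Xirp2 they were Slc12a4 (0.996), Alpk2 (0.995) and Prkaca (0.992). With 6 hearts and 9085 genes high values of r are common, and for Xirp2 and Ankrd1 they include the gap between genotypes. Of these 9 genes, Alpk2, a gene for an alpha-type kinase, passed the threshold, with a log2 fold change of 0.40 (adjusted p = 0.0313, edgeR).

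The rest of the pathway was covered by 10 lists with 114 genes of the count table, of which 108 were tested. In α1s/sα2s/s hearts 50 were higher and 58 lower, with a median log2 fold change of -0.02. In edgeR 4 of 108 passed, or 3.70% against 1.44% of all genes tested. Fbxo32 rose, and Akap5, Fhl2 and Nppb fell. At an unadjusted p under 0.05 there were 24 genes, 16 higher and 8 lower, or 22.2% against 14.5% of all genes tested, and the genotypes did not overlap in 22 genes, or 20.4%, close to the 20% over all genes. DESeq2 called 8 of the 101 it tested, 5 higher and 3 lower, or 7.92% against 3.65%. The lists were chosen with earlier results of these data known. These shares therefore cannot test whether the pathway differs from other genes. The same shares of all genes apply to each list below, where a share rests on few genes.

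**Figure D4:**
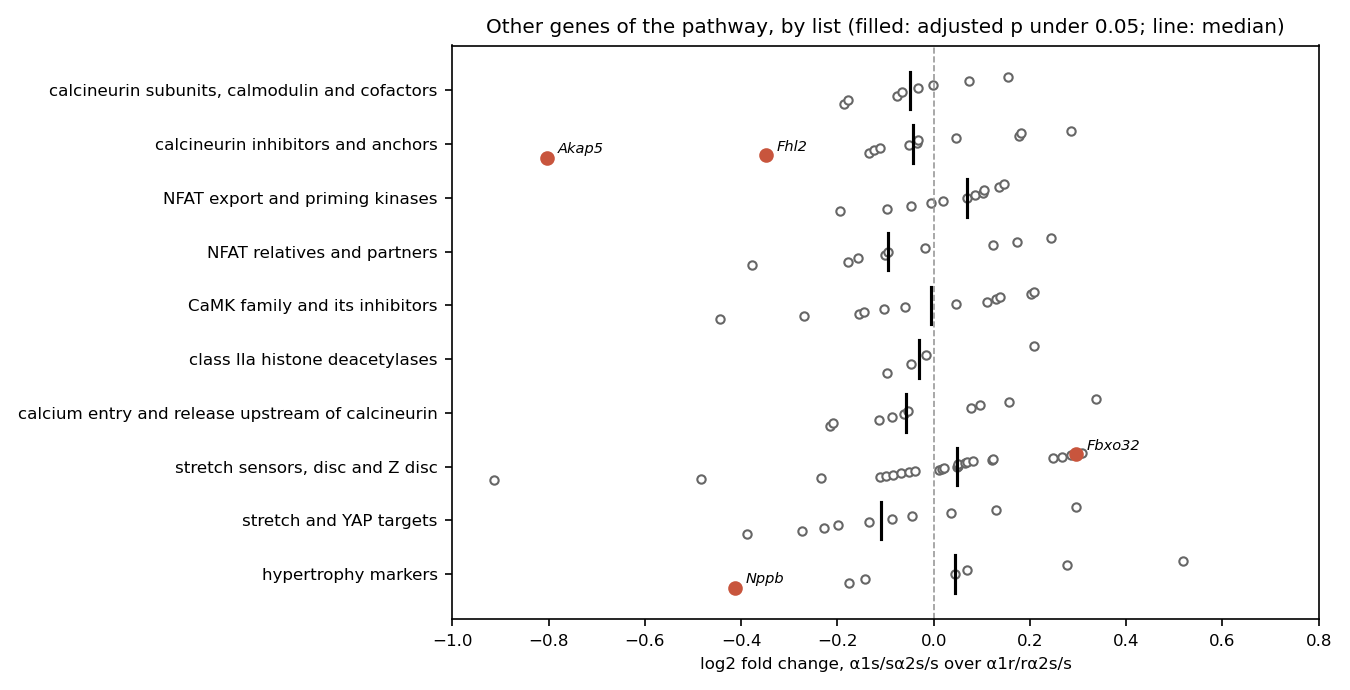
Log2 fold change of α1s/sα2s/s over α1r/rα2s/s hearts for the 108 other pathway genes tested, 1 row per list and 1 point per gene. Filled red points are the 4 genes with an adjusted p under 0.05 in edgeR, open points the others, and black lines the median of each list, from -0.11 to 0.07.

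Among the calcineurin subunits, calmodulins and cofactors, 2 of 8 tested genes were higher, 6 lower and 0 called, with 2 at an unadjusted p under 0.05 in edgeR and 0 called by DESeq2. Calmodulin is the calcium sensor that switches on both calcineurin and CaMKII. Calm2 had 114 ± 3.67 CPM in α1r/rα2s/s and 101 ± 7.46 CPM in α1s/sα2s/s hearts (SD, n = 3). It did not overlap but missed the threshold, with a log2 fold change of -0.18 (adjusted p = 0.275, edgeR). Calm3 showed a log2 fold change of -0.03 (adjusted p = 0.882, edgeR). Chp1, whose product is a calcineurin B homologue, stood at 81.8 ± 3.63 and 91.0 ± 4.36 CPM (SD, n = 3), without overlap, and at a log2 fold change of 0.15 (adjusted p = 0.338, edgeR).

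Among the genes for calcineurin inhibitors and anchors, 4 of 12 tested genes were higher, 8 lower and 2 called, both lower. That was 16.7%, against 1.44% of all genes. At an unadjusted p under 0.05 in edgeR, and in DESeq2, 2 were higher and 2 lower. Each was 33.3% of the list, against 14.5% and 3.65% of all genes. Akap5, which encodes an anchor that holds calcineurin and protein kinase A near membrane channels, had 14.1, 14.7 and 14.5 CPM in α1r/rα2s/s hearts and 9.63, 8.89 and 6.28 CPM in α1s/sα2s/s hearts. The controls lay close together and all α1s/sα2s/s hearts were well below them, and the gene fell by 0.80 on the log2 scale (SE 0.15, adjusted p = 0.0198, edgeR). Fhl2, a LIM protein of the sarcomere that binds and inhibits calcineurin, had 1212, 1276 and 1381 CPM in α1r/rα2s/s hearts and 942, 977 and 1119 CPM in α1s/sα2s/s hearts. The groups did not overlap, and Fhl2 fell by 0.35 on the log2 scale (SE 0.08, adjusted p = 0.0493, edgeR). With RLE scaling its adjusted p was 0.0542, and 1 of the 6 fits that left out a heart kept it under the threshold, against 4 of 6 for Akap5. Myoz2, whose product calsarcin-1 tethers calcineurin to the Z disc and restrains it, stood at 710 ± 51.2 and 865 ± 48.8 CPM (SD, n = 3), with a log2 fold change of 0.28 (adjusted p = 0.0840 in edgeR and 0.00236 in DESeq2).

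The kinases that return NFATc to the cytoplasm had 7 higher and 4 lower genes of 11, with 0 called and 0 at an unadjusted p under 0.05 in edgeR, and 0 called by DESeq2. The casein kinase gene Csnk1a1 showed a log2 fold change of 0.00 (adjusted p = 0.981, edgeR). Among NFAT relatives and partners 3 of 9 were higher, 6 lower and 0 called, with 0 called by DESeq2. At an unadjusted p under 0.05 in edgeR there were 4, or 44.4% against 14.5% of all genes, 2 higher and 2 lower. The partner Gata4, with which NFATc4 is known to act, had 117 ± 9.14 and 103 ± 7.86 CPM (SD, n = 3) and a log2 difference of -0.18 (adjusted p = 0.323, edgeR). Gata6 showed a log2 fold change of 0.24 (adjusted p = 0.225, edgeR) and Mef2d one of 0.17 (adjusted p = 0.301, edgeR).

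In the CaMK family and its inhibitors 6 of 12 genes were higher, 6 lower and 0 called, with 1 (Camk2g) at an unadjusted p under 0.05 in edgeR and 0 called by DESeq2. Of the 4 class IIa histone deacetylases, which CaMKII drives out of the nucleus, 1 was higher, 3 lower and 0 called, with 1 at an unadjusted p under 0.05 in edgeR and 0 called by DESeq2. That gene, Hdac5, had 84.0 ± 5.39 and 97.1 ± 5.65 CPM (SD, n = 3) and a log2 difference of 0.21 (adjusted p = 0.200, edgeR). Among the genes for calcium entry and release 4 of 10 were higher, 6 lower and 0 called, with 2 at an unadjusted p under 0.05 in edgeR and 0 called by DESeq2. The L-type channel gene Cacna1c had 312 ± 55.6 and 348 ± 21.2 CPM (SD, n = 3), and the T-type channel gene Cacna1g showed a log2 fold change of 0.34 (adjusted p = 0.216, edgeR).

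The list of stretch sensors and disc or Z disc genes had 25 tested members, 16 higher, 9 lower and 1 called. At an unadjusted p under 0.05 in edgeR there were 5 higher and 1 lower, and DESeq2 called 3, all higher (Fbxo32, Fhl1 and Des). These shares were 4% called, 24% and 13%, against 1.44%, 14.5% and 3.65% of all genes. Fbxo32, which encodes the ubiquitin ligase atrogin-1, known to target calcineurin for breakdown, had 195, 184 and 202 CPM in α1r/rα2s/s hearts and 237, 240 and 236 CPM in α1s/sα2s/s hearts. The α1s/sα2s/s hearts were nearly equal and all above the controls, and Fbxo32 rose by 0.30 on the log2 scale (SE 0.07, adjusted p = 0.0410, edgeR). The stretch sensor gene Fhl1 (105 ± 1.91 and 128 ± 9.45 CPM, SD, n = 3) showed a log2 fold change of 0.29 (adjusted p = 0.0665 in edgeR and 0.00979 in DESeq2). Des, the gene for the intermediate filament protein desmin, is named for its DESeq2 call after its values were seen, and had 1320 ± 134 and 1633 ± 125 CPM (SD, n = 3) without overlap. Its log2 fold change was 0.31 (adjusted p = 0.10002 in edgeR and 0.00418 in DESeq2). Tcap, a titin cap gene, and Cryab, a chaperone gene, had log2 fold changes of 0.02 (adjusted p = 0.943, edgeR) and 0.06 (adjusted p = 0.722, edgeR).

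Of 10 tested stretch and YAP targets, 3 were higher, 7 lower and 0 called, with 1 (Ctgf) at an unadjusted p under 0.05 in edgeR and 0 called by DESeq2. The YAP targets Ctgf and Cyr61 had log2 fold changes of 0.30 (adjusted p = 0.314, edgeR) and -0.39 (adjusted p = 0.351, edgeR).

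Among 7 hypertrophy markers 4 were higher, 3 lower and 1 called, with 2 higher and 1 lower at an unadjusted p under 0.05 in edgeR and 1 lower in DESeq2. These shares were 14.3% called, 42.9% and 14.3%, against 1.44%, 14.5% and 3.65% of all genes. Nppb, the gene for B-type natriuretic peptide, had 126, 107 and 134 CPM in α1r/rα2s/s hearts and 96.2, 83.9 and 95.2 CPM in α1s/sα2s/s hearts. The highest α1s/sα2s/s heart lay below the lowest control, and Nppb fell by 0.41 on the log2 scale (SE 0.09, adjusted p = 0.0303, edgeR). Atrial cardiomyocytes also make natriuretic peptides, and 5 of 5 atrial markers were lower in α1s/sα2s/s hearts. Nppa, the gene for A-type natriuretic peptide, is named after its values were seen. It had 93.2 ± 14.7 and 82.5 ± 5.72 CPM (SD, n = 3) with overlap, and a log2 fold change of -0.18 (adjusted p = 0.432, edgeR). The atrial markers summed to 125, 172 and 95.1 CPM in hearts 368, 369 and 370 and to 98.0, 77.8 and 93.6 CPM in hearts 379, 380 and 381. Among the controls, heart 369 had the highest sum and the lowest Nppb, and heart 370 the lowest sum and the highest Nppb. Among the α1s/sα2s/s hearts the sums and Nppb had the same order. The part of the atria in the Nppb difference was not tested. Acta1, the skeletal α-actin gene, had 182 ± 31.2 and 261 ± 46.9 CPM (SD, n = 3) and a log2 difference of 0.52 (adjusted p = 0.0548 in edgeR and 0.157 in DESeq2). Leaving out 1 heart at a time kept Fbxo32 and Nppb under the threshold in 1 of 6 fits each.

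Other cell types were followed by their markers. All 7 macrophage markers were lower, with sums of 194 to 297 CPM in α1r/rα2s/s and 149 to 198 CPM in α1s/sα2s/s hearts, and all 7 smooth muscle and pericyte markers were lower, with sums of 937 to 1010 and 863 to 983 CPM. Sums for fibroblasts were 1834 to 2067 and 1931 to 2234 CPM and for endothelium 1218 to 1452 and 1234 to 1457 CPM, with 1 marker called, Fabp4 (log2 fold change 0.39, adjusted p = 0.0358, edgeR). Blood genes ranged from 536 to 1272 CPM in α1r/rα2s/s and from 401 to 3187 CPM in α1s/sα2s/s hearts, highest in heart 380. Lymphocyte, adipocyte, skeletal muscle, neuron and glia, and mesothelium markers each summed to under 12 CPM in every heart, with Ucp1, Myh4 and Th at 0 throughout. All marker sums overlapped between genotypes, and their part in the results above was not tested.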

How the data were processed

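Total RNA from whole hearts was sequenced, and the authors deposited raw counts per gene without normalization. The submitters' processing notes name fastp, STAR, featureCounts and mm10, while versions and the strand setting are not given in the sources used here. A further table, holding the fold changes and p-values of the authors' DESeq2 comparison, was not used. Each heart is 1 mouse. No batch is labelled.

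Counts were analysed in R 4.3.3 with edgeR 4.0.16 (TMM, filterByExpr with a minimum count of 10 and a minimum total of 15, quasi-likelihood test, Benjamini-Hochberg adjustment over the 14866 genes tested, threshold 0.05). DESeq2 1.42.0, other scaling factors and filters, an adjusted p under 0.1 and leaving out each heart were the alternatives. Log2 CPM used a prior count of 2. Standard errors (SE) were derived from F, as the absolute log2 fold change over its root. The scripts were tested on simulated data. Gene positions were those deposited with the counts. Transcripts, annotated exons and overlapping genes were those of GENCODE M21 (GRCm38), where 53585 of the 54532 genes had the same start and end.

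The genes and lists were chosen with earlier results of these data known. Named were all 10 genes, every pathway gene past the threshold, and genes among the 2 most abundant per kb or the 2 with the smallest p of each list. Rcan2, Ppp3cc, Ppp3r1 and Xirp1 were added as relatives of the 10 genes after their values were seen. Des, Nppa, Mef2a and Mef2c were also added after their values were seen. Some single genes are not reported here and were left out of the list counts. The p-values of edgeR and DESeq2 set the genotype difference against the spread between these hearts, estimated with the help of all genes. Those of the permutation test set it against the other ways of splitting the hearts.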

Additional observations from a re-analysis of the deposited data

How the results depend on the processing

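Of the 10 genes, DESeq2 called 1 and edgeR without a filter on low counts called 1, in both cases Xirp2, and the other 12 alternatives called 0, also at an adjusted p under 0.1. Of all genes, 403 were called by DESeq2, 618 without a filter, 402 at an adjusted p under 0.1 and 80 to 158 when 1 heart was left out. Of the other pathway genes, 8, 12 and 7 were called under the first 3 of these settings and 0 to 5 when 1 heart was left out, with 0 without heart 368. The log2 fold change of Rcan1 ran from -0.0646 to 0.0152 over the fits that left out 1 heart, turning positive without heart 380. That of Nfatc2 ran from -0.127 to 0.18, turning negative without heart 369 (-0.127) and without heart 379 (-0.0422). Nfatc4 ran from -0.36 without heart 379 to -0.00077 without heart 380, in effect no difference, and the sign of the other 7 genes was kept in all 13 alternatives. The difference in the Ppp3ca share, 0.911 percentage points, turned to -0.319 without heart 370, and that in the Nfatc3 share shrank from 1.22 to 0.0343 without heart 380. The difference in the Camk2d share ran from -3.61 to -2.07 points over the fits that left out 1 heart. No scaling moved the median of all genes by over 0.1. No paired analysis was possible because the labels give the hearts of the genotypes no shared numbers. Counting error was largest for Nfatc4, and the spread between hearts was 11.1% over all genes.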
